A study of Mus musculus with 3 samples.

Results

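The cytosolic ribosomal protein genes, which encode the protein components of the ribosomes outside mitochondria, were described in RNA-seq libraries of 3 cultured mouse myoblast lines. Members were defined by name and annotation, with earlier results of these data known. They were protein-coding genes with a symbol of the Rpl or Rps series, plus Rpsa, Rplp0, Rplp1 and Rplp2. Names marked as pseudogenes and the Rps6k kinases were left out. Of 35562 genes listed, 84 were members, 52 of the large and 32 of the small subunit, and 81 of them reached a mean of 10 TPM, the estimated count divided by effective transcript length and scaled to 1000000 per library.

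Lines 66, 67 and 72 carried the Dmdmdx; Pax7-nGFP genotype after CRISPR/Cas9 correction of the mdx mutation, and were grown from FACS-purified satellite cells of intraspecies mouse chimeras. The edited iPSCs, with the edit checked in a single clone, had been injected into Pax7 Cre/ERT2; Rosa26 lsl-DTA host blastocysts, a design in which tamoxifen ablates the host's own satellite cells, although Cre activity without tamoxifen was not excluded, and nGFP is a nuclear reporter driven by Pax7, the transcription factor of satellite cells. The labels give neither the chimera nor the tamoxifen status of each line, and do not say that the lines came from separate animals, so the spread between lines may be partly technical. The 3 libraries form a single condition, which leaves comparisons among genes and among lines but none between treatments.

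A ribosome is built from ribosomal RNAs and one copy of most of the proteins described here, while the acidic stalk proteins P1 and P2 are present as dimers. Many vertebrate ribosomal protein mRNAs begin with a C followed by a run of pyrimidines, the 5′ terminal oligopyrimidine (TOP) motif, through which mTOR and the RNA-binding protein LARP1 control their translation. In proliferating myoblasts these mRNAs supply the ribosomes needed for growth, and a few members have paralogs that are used in differentiated muscle or in the male germ line.

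To show the start-site feature, bases from 10 before to 20 after the RefSeq start (build GRCm38.p6) are given for 10 of the 16 genes among the 5 most abundant members and the paralog pairs that had an entry in the promoter table. Capitals mark a C followed by at least 5 C or T whose first base lies within 10 bases of the start, on either side. A marked run therefore need not begin the mRNA or lie within it, and those of Rps27l and Rpl39l lie wholly before the annotated start. The 6 not printed (Rpl7l1, Rpl10, Rpl10l, Rpl36a, Rpl36al and Rps4x) lacked the run, so that 7 of the 16 carried it.
Rpl41 (chr10:128549149-128549178, minus strand): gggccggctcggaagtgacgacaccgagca
Rps12 (chr10:23787190-23787219, minus strand): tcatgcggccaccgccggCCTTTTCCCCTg
Rps24 (chr14:24490668-24490697, plus strand): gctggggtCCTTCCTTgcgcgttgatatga
Rpl22 (chr4:152325716-152325745, plus strand): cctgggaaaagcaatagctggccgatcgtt
Rpl22l1 (chr3:28805498-28805527, plus strand): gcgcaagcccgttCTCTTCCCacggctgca
Rps27 (chr3:90213629-90213658, minus strand): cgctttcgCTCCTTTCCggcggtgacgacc
Rps27l (chr9:66946076-66946105, plus strand): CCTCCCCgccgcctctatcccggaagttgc
Rpl39 (chrX:37085203-37085232, minus strand): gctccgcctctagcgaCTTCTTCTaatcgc
Rpl39l (chr16:10170218-10170247, plus strand): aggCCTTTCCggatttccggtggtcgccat
Rpl3l (chr17:24727816-24727845, plus strand): ttctagctctgtcatttgacctctggtgcc

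A run of this kind was found in 46.1% of 76 member promoters and in 18.5% of all 32851 promoters in the table, which was also the share among the 8678 promoters of genes that reached 10 TPM here. Of the 84 members 64 had an entry, and 34 of those had the run in at least 1 promoter. Rpl39l, which was almost silent in these cells, had a run that lay before its annotated start. In its abundant partner Rpl39 the run began after the start, and Rpl41, the most abundant member, had none. Over the 300 bases from 250 before to 50 after the start, on either strand, CCGGAAG, the core bound by ETS factors, was in 35.5% of member promoters, 20.3% of those of genes at 10 TPM and 8.86% of all promoters. In the same order CTCGCGAG was in 10.5%, 2.32% and 0.919%, and ATGGCGG, a core of the YY1 motif, in 18.4%, 9.20% and 4.05%. The GC box GGGCGG was in 60.5% of member promoters, below the 65.9% of genes at 10 TPM and above the 35.7% of all promoters. CAGCTG, an E-box bound by myogenic factors, was in 5.26% of member promoters, 14.5% of those of genes at 10 TPM and 16.3% of all. TATAAA, in 9.21% of member promoters, lay above the 6.80% of genes at 10 TPM and below the 13.6% of all promoters. CCAAT was in 30.3%, 37.8% and 37.4%. These matches describe letters in the annotated windows and do not show that a factor was bound.

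Ribosomal protein genes supplied 15.9%, 14.7% and 14.8% of all TPM in lines 66, 67 and 72 (15.1% ± 0.677, SD, n = 3 lines). As a share of estimated counts, which long transcripts dominate, the same genes held 5.17%, 4.84% and 4.72% (4.91% ± 0.234). Line 66 was highest on both scales, while lines 67 and 72 changed places. The median length of the leading transcript was 614 bases for members and 2446 bases for all genes at 10 TPM. In bulk libraries, a change in the share of cells of a type and a change in RNA per cell cannot be told apart.

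Members lay close together and near the top of the expression range. The median member at 10 TPM stood at 1781 TPM and the median of all 8428 genes at that level at 36.8 TPM. On the log2(TPM + 1) scale the member medians were 10.83, 10.76 and 10.78 in the 3 lines, against 5.22, 5.24 and 5.28 for all genes. In every line 76 of 84 members exceeded 1000 TPM, a level passed by 149 genes in all, and 65 members had means between 1000 and 2500 TPM. They made up 53 of the 100 most abundant genes but none of the top 10. By comparison the 78 mitochondrial ribosomal protein genes, which serve the separate ribosome of mitochondria, had a median of 64.3 TPM and a combined 0.615% ± 0.00432 of TPM. The longest member by coding sequence had 419 codons and the shortest, Rpl41, 25 codons. Across the 81 members level and codon number showed a Spearman rho of 0.153, a description over genes that share libraries and length correction.

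**Figure D1:**
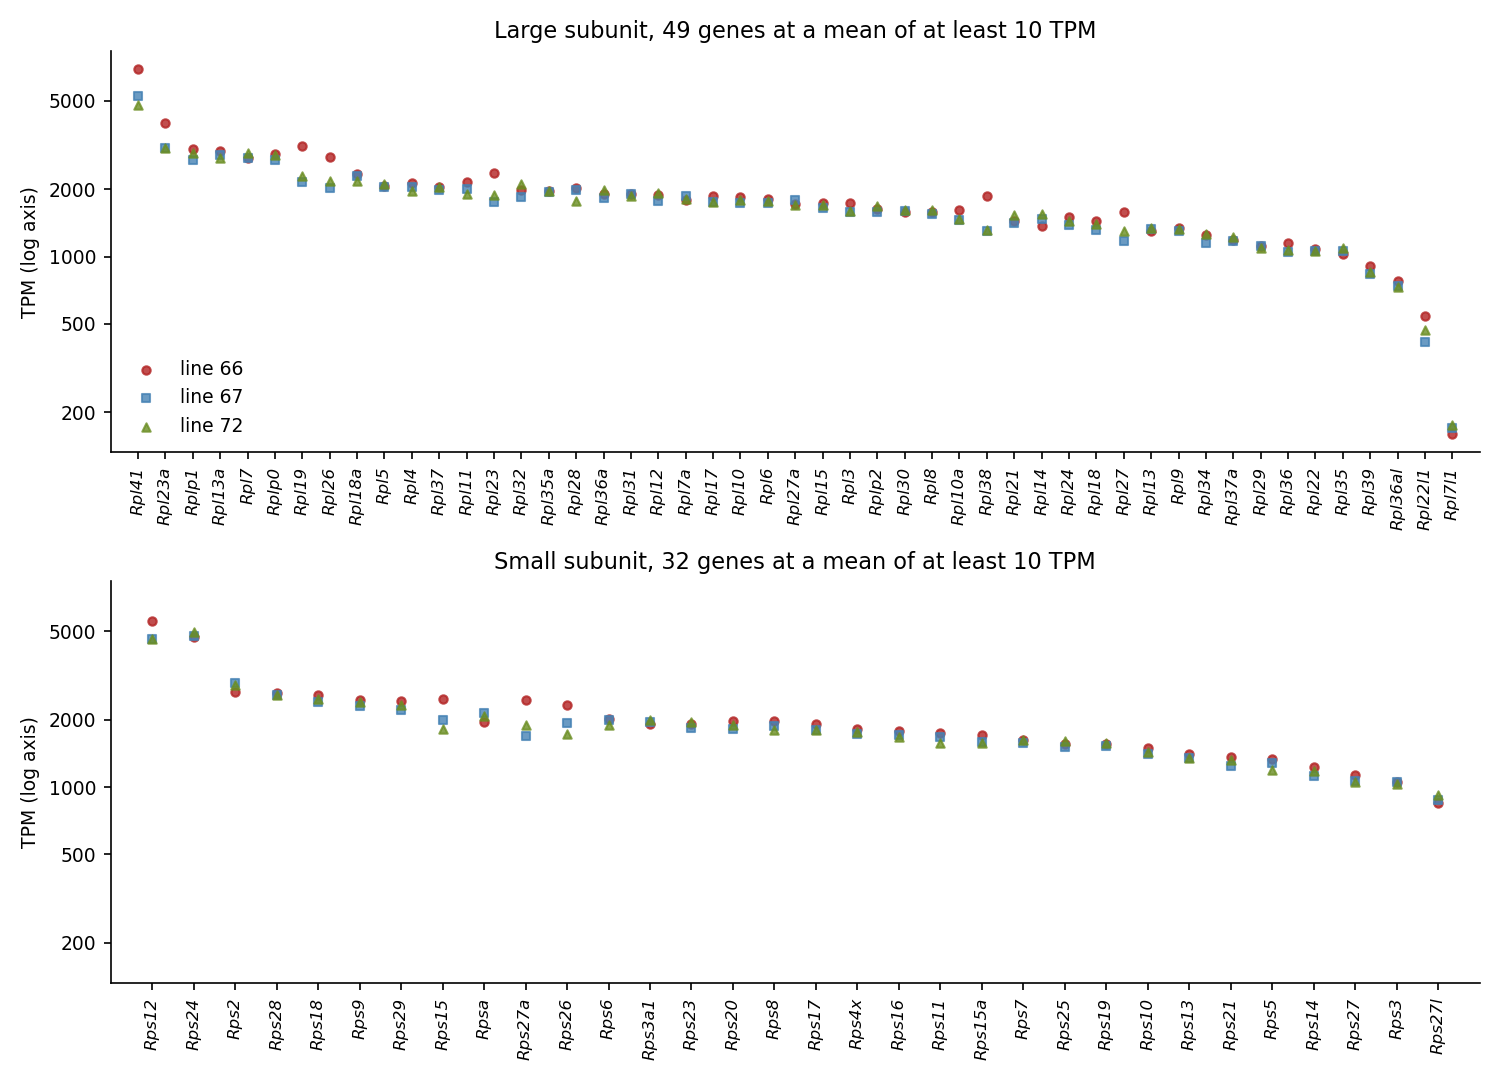
TPM (log axis) of the 81 ribosomal protein genes at a mean of at least 10 TPM, ordered by mean within the large (upper) and small (lower) subunit, with 1 symbol per line and no averaging. Rpl41, Rps12 and Rps24 lead, most members sit between 1000 and 2500 TPM, and Rpl22l1 and Rpl7l1 are lowest; line 66 stands above the other lines for members such as Rpl19, Rpl26 and Rpl38.

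The most abundant member was Rpl41 (ENSMUSG00000093674, GRCm38 chr10:128548114-128549305), which encodes a very small protein of the large subunit. Its levels were 6946, 5280 and 4791 TPM in lines 66, 67 and 72, with line 66 well above the others. Rps12 (chr10:23785183-23787275), of the small-subunit beak, stood at 5548, 4613 and 4637 TPM, again highest in line 66. Rps24 (chr14:24487125-24496959), of the small subunit and mutated in some families with Diamond-Blackfan anemia, was at 4725, 4780 and 4962 TPM and differed by 1.05-fold at most. Rpl23a (chr11:78180932-78183584), near the peptide exit tunnel, was at 3957, 3066 and 3068 TPM. Rplp1 (chr9:61913284-61914542), a protein of the acidic stalk that recruits elongation factors, was at 3052, 2706 and 2925 TPM. The order of the leading members was not fixed: Rps24 and Rps12 overlapped between lines, whereas every line of Rps24 lay above every line of Rpl23a. Of the 80 neighbouring pairs in the whole order, 8 did not overlap in their 3 values, so most adjacent ranks did not differ beyond the spread.

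The other stalk proteins lay at unequal levels. Rplp0, which anchors the stalk, was at 2895, 2723 and 2844 TPM, close to Rplp1. Rplp2, the partner of Rplp1 in the stalk dimers, was at 1641, 1590.04 and 1681 TPM, below both in every line. Rpsa, a small-subunit protein also known as a laminin receptor precursor, was at 1960, 2140 and 2086 TPM and was lowest in line 66.

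The 2 subunits were almost level. The median small-subunit gene lay at 10.90, 10.78 and 10.80 on the log2(TPM + 1) scale and the median large-subunit gene at 10.81, 10.76 and 10.74. Large minus small gave -0.09 in line 66, -0.02 in line 67 and -0.06 in line 72, with a mean of -0.06 ± 0.04 (SD, n = 3). By the exact two-sided sign-flip test over lines p was 0.25, the smallest that 3 lines allow. Small-subunit members spanned 5.59-fold from Rps27l to Rps12, and large-subunit members at 10 TPM spanned 33.7-fold from Rpl7l1 to Rpl41. The sign of the subunit difference turned without division by length, where it was 0.03.

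Fau and Rack1, ribosomal proteins outside the naming rule, had levels within the range of the members. Fau, a ubiquitin-like fusion that releases the small-subunit protein eS30, was at 1412, 1294 and 1318 TPM. Rack1, a signalling scaffold on the small subunit encoded on chromosome 11, was at 2115, 1418 and 1509.75 TPM, with line 66 apart from the others.

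Paralog pairs ranged from near-equal use to almost complete silence of one partner. Coding sequences of Rpl39 and Rpl39l, whose product lines the peptide exit tunnel, are printed to show how reads of partners can be separated. Each has 51 codons without the stop codon and 153 bases from GENCODE M21 (GRCm38), and capitals mark the 23 bases that differ, 16 of them at the third codon position.
Rpl39 (chrX:37082704-37085127, minus strand, spliced): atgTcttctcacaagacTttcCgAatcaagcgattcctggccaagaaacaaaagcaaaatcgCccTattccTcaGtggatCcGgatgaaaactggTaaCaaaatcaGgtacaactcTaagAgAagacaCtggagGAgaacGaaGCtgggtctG
Rpl39l (chr16:10174310-10174462, plus strand): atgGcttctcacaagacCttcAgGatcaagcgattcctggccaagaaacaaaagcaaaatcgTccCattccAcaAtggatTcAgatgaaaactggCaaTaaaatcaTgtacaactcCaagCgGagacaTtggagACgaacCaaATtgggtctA

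Rpl39 was at 903, 834 and 856 TPM, whereas Rpl39l, known from the testis, had 0, 2 and 1 counts in lines 66, 67 and 72. Over the 3 libraries Rpl39l came to 0.00816% of Rpl39 (exact 95% Poisson interval of the counts 0.00168 to 0.0238%), and to 0.00538% of its estimated counts. Rpl3 was at 1736, 1578 and 1601 TPM. Its paralog Rpl3l, known from differentiated skeletal and cardiac muscle, had 2 counts in each line, which is 0.00314% of Rpl3 (interval 0.00115 to 0.00684%). Rpl10, of the X chromosome, was at 1843, 1737 and 1785 TPM, and its autosomal retrogene Rpl10l, active in the male germ line, had 0 counts in all 3 lines. Taking 3 counts per library as the limit that a count of 0 allows, Rpl10 was at least 21318-fold higher. Such limits and intervals cover counting error only.

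The other pairs were used together. Rpl22 stood at 1078, 1057 and 1060 TPM, a range of 1.02-fold, and Rpl22l1 at 539, 413 and 468 TPM, a range of 1.30-fold. Rpl22l1 therefore amounted to 49.95% of Rpl22 in line 66, and to 39.1% and 44.1% in lines 67 and 72 (44.4% ± 5.44, n = 3). Rpl36al, an autosomal paralog of the X-linked Rpl36a, was 40.8%, 40.3% and 36.3% of it (39.1% ± 2.44). Rpl7l1, which takes part in ribosome assembly, was at 159, 170.2 and 175 TPM against 2768, 2781 and 2924 TPM for Rpl7, or 5.95% ± 0.18, and 14.2% ± 0.608 of its estimated counts, without division by length. Rps27l, induced by p53, was closest to its partner, at 852, 878 and 917 TPM against 1130, 1061 and 1049 TPM for Rps27. The share of Rps27l to Rps27 was 75.4%, 82.7% and 87.4%, lowest in line 66. In estimated counts Rpl22l1 was 31.4% ± 3.67 of Rpl22, Rpl36al 46.1% ± 2.41 of Rpl36a and Rps27l 68.5% ± 3.85 of Rps27. The order of the Rpl22l1 and Rpl36al shares thus depended on the division by length. In all 7 pairs the paralog was below its partner in every line (exact sign-flip test over lines, p = 0.25 for each, adjusted 0.25 over 7 pairs), which cannot pass 0.05 with 3 lines.

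Coding sequences in the 7 pairs were between 53.8% (Rpl7 and Rpl7l1) and 87.7% identical (Rpl36a and Rpl36al) over aligned bases. Rps4l was not among the genes analysed here, so Rps4x, at 1815, 1727 and 1765 TPM, had no partner to set beside it.

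**Figure D2:**
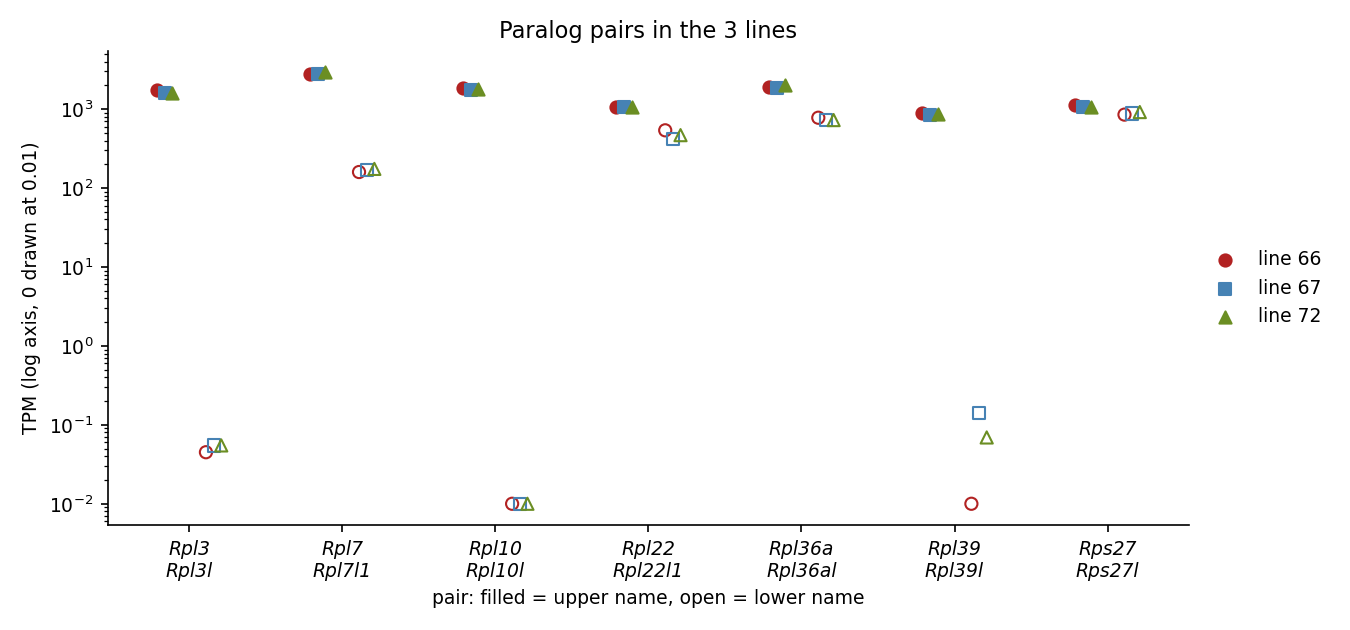
TPM (log axis) of the 7 pairs in each line, filled symbols for the first and open symbols for the second gene of a pair; a value of 0 is drawn at 0.01. Rpl3l, Rpl10l and Rpl39l lie at or below 0.142 TPM, Rpl7l1 at 5.95% of Rpl7, and Rpl36al, Rpl22l1 and Rps27l closer to their partners.

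Between lines most members varied little, and those on chromosomes 10 and 11 varied more. The median range, the highest minus the lowest line on the log2(TPM + 1) scale, was 0.107 for the 81 members (1.08-fold) and 0.233 for all 8428 genes (1.18-fold). The 11 members on chromosomes 10 and 11 had a median range of 0.452, against 0.332 for all 1126 genes there, and the 70 members elsewhere 0.0981, against 0.219 for all 7302 genes there. Without line 66 the median range was 0.0539 for members and 0.111 for all genes, and without line 67 it was 0.0706 and 0.169. The 272 other genes at a mean of at least 400 TPM had a median range of 0.229. No member was over 2-fold apart between any pair of lines (0 of 81), against 2.17% of all genes. At 1.5-fold the count was again 0 of 81, against 9.03% of all genes. The steadiest were Rpl31 (1903, 1905 and 1876 TPM), Rpl35a (1961, 1945 and 1977 TPM) and Rps28 (2634, 2586 and 2598 TPM), each within 1.02-fold. Across the 81 members log2 levels of lines 67 and 72 gave a Pearson r of 0.994, and line 66 gave 0.978 with each of them, a description over genes that share each library.

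**Figure D3:**
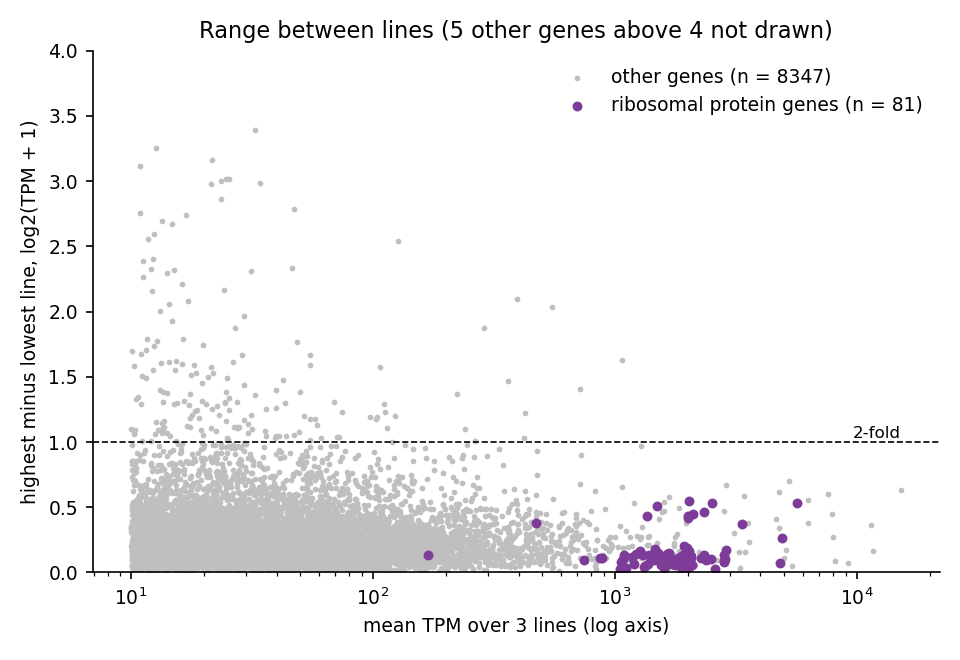
Range between lines (highest minus lowest, log2(TPM + 1)) against mean TPM (log axis) for 81 ribosomal protein genes (purple) and 8347 other genes (grey) at a mean of at least 10 TPM; the dashed line marks 2-fold and 5 other genes above 4 are not drawn. Members lie at or below 0.547, with a median of 0.107, and those above 0.25 are the 11 members on chromosomes 10 and 11 and Rpl22l1.

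Members with the widest ranges were encoded on chromosomes 10 and 11. Rps27a (chr11:29545846-29548109) led with 1.46-fold, followed by Rpl41 (chromosome 10, 1.45-fold), Rpl19 (chromosome 11, 1.45-fold), Rpl38 (chromosome 11, 1.43-fold) and Rpl26 (chromosome 11, 1.38-fold). Rps27a, which encodes ubiquitin fused to a small-subunit protein, was at 2471, 1690.35 and 1889 TPM. Rpl19, of the large subunit, was at 3127, 2158 and 2289.91 TPM. Rpl38, whose loss disturbs vertebral patterning in mice, was at 1864, 1307.5 and 1314 TPM. Rpl26, which also binds p53 mRNA, was at 2802, 2037 and 2191 TPM. In all of them line 66 was highest, and lines 67 and 72 were nearer to each other than to line 66.

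Line 66 was highest for every member of these chromosomes. On chromosome 10 lie Rpl41, Rps12, Rps15 and Rps26, and on chromosome 11 Rpl23a, Rpl19, Rpl26, Rps27a, Rpl23, Rpl38 and Rpl27. Rps15, near the decoding centre, was at 2493, 1995 and 1823 TPM, and Rps26, near the mRNA exit channel, at 2344, 1935 and 1738 TPM. Rpl23, which can bind the p53 regulator MDM2, was at 2359, 1765 and 1892 TPM, and Rpl27 at 1584, 1174 and 1299.52 TPM. All 11 members were highest in line 66, where 82.0% of the 1126 genes of both chromosomes at 10 TPM were also highest. Relative to the average of lines 67 and 72, line 66 had a median log2 ratio of 0.37 for the members on chromosome 10 and 0.22 for all its genes. On chromosome 11 it was 0.41 for members and 0.27 for all genes. Members and all genes of both chromosomes thus moved the same way, and the part of the chromosome-wide shift in the members' levels was not tested.

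Elsewhere the members differed less between lines. For the 70 other members at 10 TPM the median log2 ratio in line 66 was 0.05, against -0.08 for all 7302 genes outside both chromosomes. With scaled counts in place of TPM this median was 0.10 under both TMM and DESeq2 size factors, and that in line 72 went from 0.0043 to -0.09. Rps12, with 0.26, was the lowest of the 11, and 1 member elsewhere exceeded it, Rpl22l1 with 0.29. The next was Rpl10a with 0.14, and the lowest was Rpl14 with -0.15. On chromosome 6, where line 72 was shifted by 0.21 over all genes, the sole member Rpl32 was at 1992, 1852 and 2111 TPM, a ratio of 0.14 in line 72 that was 0.060 with CPM, counts scaled to the library total without length, and 0.021 with edgeR's TMM factors.

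**Figure D4:**
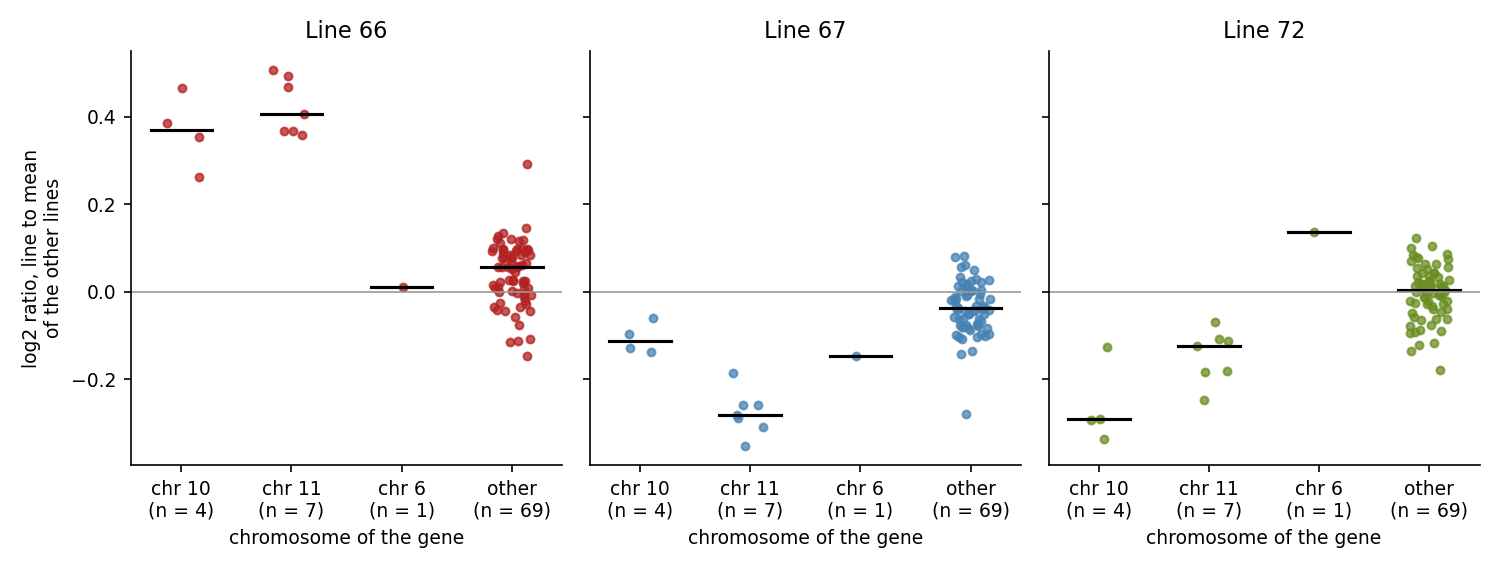
Log2 ratio of each line to the average of the remaining lines for the 81 members, by chromosome class (chr 10, chr 11, chr 6 and all others); points are genes and black bars are medians. In line 66 the members on chromosomes 10 and 11 sit between 0.26 and 0.51, apart from nearly all other members, and in lines 67 and 72 they sit below 0.

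In TPM and in estimated counts, most of the higher total in line 66 lay on chromosomes 10 and 11. This part was not computed with TMM or DESeq2 factors, under which the median ratio of the members elsewhere was 0.10, against 0.05 with TPM. The 11 members on chromosomes 10 and 11 summed to 3.55%, 2.70% and 2.69% of TPM, and carried 73.4% of the excess of line 66 over the average of lines 67 and 72. The 73 members elsewhere summed to 12.4%, 11.9% and 12.2%, so that line 66 was 2.56% above the mean of the others in relative terms, against 31.6% for the 11. In estimated counts the 11 carried 57.6% of the excess, and line 66 was 4.01% above the mean of the others for the members elsewhere. Counted by gene, 53 of 81 members were highest in line 66, against 28.1% of all genes and 32.4% of the 272 other genes at 400 TPM or more. Outside chromosomes 10 and 11 the count was 42 of 70, against 19.8% of all genes there. Only 6 members were highest in line 67 (26.2% of all genes) and 22 in line 72 (45.7% of all genes).

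The place of line 72 depended on the scaling. With edgeR's TMM factors applied to estimated counts, without length, 68 members were highest in line 66, 13 in line 67 and 0 in line 72, against 37.0%, 35.0% and 28.1% of all genes. Of the 70 members outside chromosomes 10 and 11, 57 were then highest in line 66. The share over all genes outside both chromosomes was not computed with TMM, so this count has no background beside it. All 11 members of chromosomes 10 and 11 stayed highest in line 66 under TPM, CPM, TMM and DESeq2 size factors, with median ratios between 0.39 and 0.43. Median effective length of the leading member transcript was 430.0, 429 and 426 bases in the 3 lines, against 2325, 2341 and 2334 bases for all genes.

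Markers of differentiating muscle were lowest in line 66, and myoblast markers had no common order. Defining myoblast genes were present in all libraries, with Myod1 at 791, 702 and 579 TPM, Pax7 at 136, 143 and 154 TPM and Des at 484, 511 and 487 TPM. Itga7 was at 307, 267 and 290 TPM, Cdh15 at 162, 162 and 187 TPM and Myf5 at 97.2, 118 and 113 TPM. Over these 6 myoblast markers the sum was 1977, 1902 and 1809 TPM, led by Myod1, but 2 of the 6 were highest in line 66 and their median log2 ratio there was -0.07. The 5 genes of differentiating muscle (Myog, Ckm, Myh3, Tnnt3 and Acta1) summed to 935, 1378 and 1635 TPM, with Myog at 168, 222 and 310.368 TPM. Of the 5 fibroblast markers Lum and Dpt were at 0, Dcn and Pdgfra were at or below 0.454 TPM and Col1a2 was at 7.47, 28.3 and 37.0 TPM, lowest in line 66. Of the 3 immune markers Ptprc and Cd3e were at or below 0.0690 TPM and Cd68 was at 3.897, 2.92 and 4.23 TPM. The 3 endothelial markers were at or below 0.526 TPM, the highest value being that of Pecam1. The part of these markers in the members' higher share in line 66 was not tested.

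Genes of ribosome assembly had list medians far below that of the ribosomal protein genes, and none was over 1.5-fold apart between lines. Of 9 RNA polymerase I genes at 10 TPM (10 on the list), which transcribe ribosomal RNA, 3 (33.3%) were highest in line 66, near the 28.1% of all genes. The median of the list was 58.5 TPM, from Taf1d (173 TPM) and Polr1d (145 TPM) down to Taf1c (5.29 TPM). The 11 genes of nucleolar RNA modification and processing had a median of 149.6 TPM, from the nucleolar proteins Npm1 (3095 TPM) and Ncl (968 TPM) down to Tcof1 (43.2 TPM). The 12 genes of small-subunit assembly had a median of 59.3 TPM, from Emg1 (115 TPM) to Dimt1 (22.7 TPM). The 18 genes of large-subunit assembly had a median of 91.8 TPM, from Gnl3 (214 TPM) to Mdn1 (15.8 TPM). The 7 chaperones dedicated to ribosomal proteins had a median of 49.4 TPM, from Aamp (103 TPM) to Pdcd2l (18.1 TPM), with the Rps2 chaperone Pdcd2 at 58.3 TPM and the Rps26 chaperone Tsr2 at 28.1 TPM. In these 5 lists 0 genes were over 1.5-fold apart, with the background of 9.03% given above. Highest in line 66 were 4 of 12 genes of small-subunit and 6 of 18 of large-subunit assembly (33.3% of each), 3 of 11 genes of nucleolar processing (27.3%) and 0 of 7 chaperones, against 28.1% of all genes. All 4 of small-subunit assembly (Pno1, Tsr1, Ltv1 and Utp20) lie on chromosomes 10 and 11, where 82.0% of all genes were highest in line 66. So do 3 of the 6 of large-subunit assembly and 2 of the 3 of nucleolar processing.

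Other mRNAs with a TOP motif were nearer to the members. The 13 listed had a median of 1107 TPM, led by the elongation factor Eef1a1 (12404, 11503 and 11053 TPM) and by Tpt1 (8404, 8204 and 7899 TPM), both above every member. At the other end stood the initiation factor subunit Eif3f with 119 TPM. Of the 13, 8 (61.5%) were highest in line 66. The shares were 28.1% of all genes and 32.4% of the genes at 400 TPM or more that are not members. Among the 8 were Eef2 and Nap1l1, the 2 listed on chromosomes 10 and 11, where 82.0% of all genes were highest in line 66. Eef2, the translocation factor on chromosome 10, was the widest at 2305, 1830 and 1776 TPM. Of 12 regulators of TOP mRNAs, 10 reached 10 TPM. The lowest, Larp1b, did not, at 4.46, 7.41 and 5.16 TPM. Of the 10, 4 (40%) were highest in line 66, against 28.1% of all genes, and all 4 lie on chromosomes 10 and 11. Larp1 (chromosome 11) was at 91.1, 75.9 and 79.5 TPM, Mtor at 19.9, 19.9 and 18.7 TPM, and the translation repressor Eif4ebp1 at 159, 173 and 167 TPM. Of the 78 mitochondrial ribosomal protein genes, from Mrps21 (245.1 TPM) to Mrpl1 (18.4 TPM), 22 (28.2%) were highest in line 66, near the 28.1% of all genes. On chromosomes 10 and 11 the count was 12 of 13, where 82.0% of all genes were highest in line 66. Over 1.5-fold apart was 1 of the 78, against 9.03% of all genes.

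In a minority of members the transcript carrying the signal was one that the annotation does not label as coding. Over all members 78.6% ± 0.202 of TPM lay on coding transcripts, against 83.2% ± 0.221 in other coding genes. The median member had 98.8%, and 52 of 81 had over 90%, but 14 of 81 (17.3%) had under 50%, against 10.5% of 8303 coding genes at 10 TPM. Rpl23a was the extreme: its coding transcripts had 0 counts in each line and a 588-base transcript labelled as a retained intron held 99.9% of its TPM. In Rpl37, Rpl35, Rps20 and Rps26 the leading transcript was likewise labelled non-coding and held between 92.3% and 94.6% of the gene's TPM. Estimated counts of Rps20 were less one-sided. Its coding transcripts had 17256, 14954 and 14167, against 29519, 24106 and 26182 for the leading transcript. The leading transcript was not labelled as coding in 13 of 81 members, and in 12 of those 13 it held over 90% of the 31-base words of the principal coding sequence (94.7% in Rpl23a, 99.4% in Rpl35). In the remaining one, Rps16, it held 88.7%.

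Shared sequence limits what single values can carry. The median member had 96.7% of its 31-base words in no other listed gene, and 57 of 84 had at least 90%. Rpl35 had the fewest, 13.1%, and shared most with Wdr38, while Rpl23a had 45.7% and shared most with Tlcd1. The values of both depend on how shared reads were divided and are uncertain. Among genes of the 7 pairs, Rpl10 had 67.8%, Rps27 72.6% (shared with Rps27rt), Rpl36al 77.9% and Rpl36a 79.0%. The other genes of the pairs had at least 93.96%, with Rps27l at 100%. The shares given for Rps27l and Rpl36al therefore also depend on that division. Rpl38, Rps15 and Rps29 were among those with 100%. Of 13523 pseudogenes in the annotation 95 were listed in the deposited tables, while 83 of 84 members shared words with at least 1 annotated gene that was not listed, with a median of 17.5 such genes and up to 164 for Rpl7a. Reads from unlisted pseudogenes had no transcript of their own to be assigned to, and their part in the members' values was not tested.

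Transcript shares of Rps24, Rpl22l1 and Rps12 differed between lines to unequal degrees. Rps24 has an 18-base and a 20-base alternative exon near the end of its reading frame, and Rpl22l1 has a second exon whose first 3 bases, in capitals, are present or absent.
Rps24 18-base exon (GRCm38 chr14:24494052-24494069, plus strand): aaatgaaatacctagcag
Rps24 20-base exon (GRCm38 chr14:24495430-24495449, plus strand): tgagtggagattggatacag
Rpl22l1 second exon (GRCm38 chr3:28806500-28806592, plus strand): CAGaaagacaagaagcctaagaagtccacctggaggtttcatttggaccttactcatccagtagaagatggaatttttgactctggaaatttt

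The transcript with the 18-base exon was 6.58%, 7.40% and 8.74% of Rps24 TPM (7.57% ± 1.09, n = 3). Transcripts with the 20-base exon but without the 18-base exon made up 45.3%, 45.3% and 44.0% (44.9% ± 0.731), with hardly any spread. The leading Rps24 transcript, which belongs to neither group, held 46.5%. For Rpl22l1, the form with the 93-base exon was 52.8%, 56.9% and 68.4% of TPM and that with the 90-base exon 44.8%, 39.8% and 29.2%. The longer exon was thus ahead in every line and least so in line 66. Rps12 divided its signal between a 584-base transcript, at 50.3%, 44.4% and 38.8%, and a 460-base transcript, at 39.0%, 44.7% and 50.3%. The higher level of Rps12 in line 66 lay in the 584-base transcript, at 2792, 2049.89 and 1798 TPM, while the 460-base transcript was at 2165, 2061 and 2334 TPM. Each library gives 1 value per transcript and the division of reads among transcripts is an estimate, so these differences between lines have no replicate check.

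**Figure D5:**
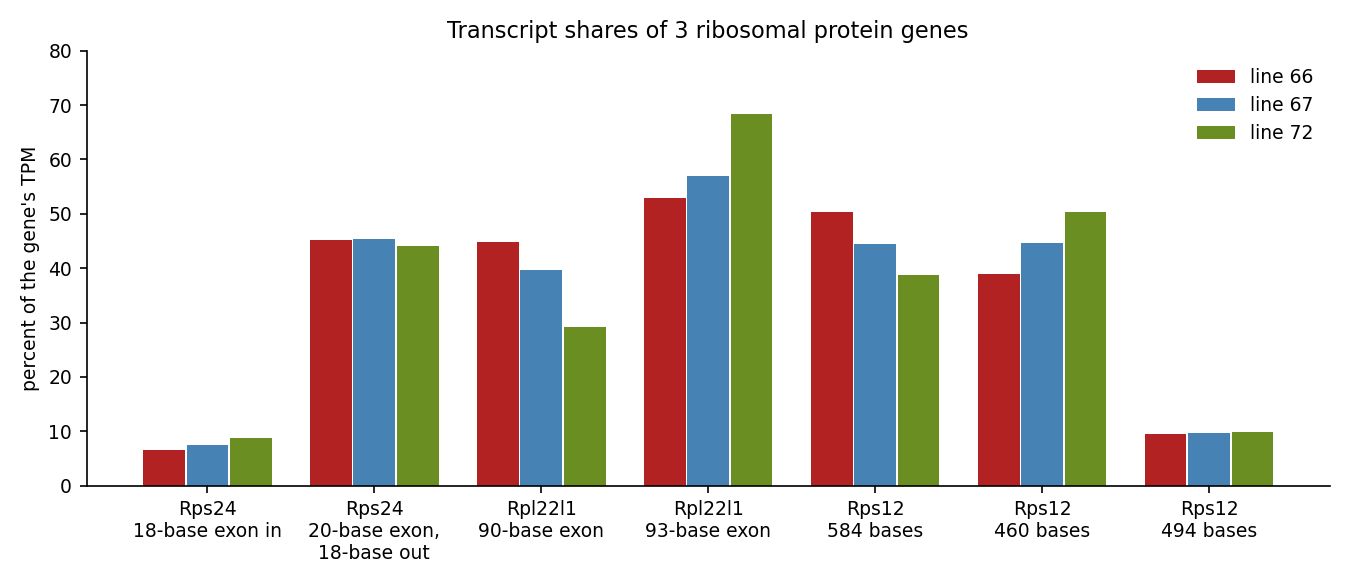
Percent of the gene's TPM (bars from 0, 1 bar per line, no error bars) on transcript groups of Rps24, Rpl22l1 and Rps12. The Rps24 20-base form is nearly even across lines and its 18-base form lies between 6.58% and 8.74%, while the Rpl22l1 90-base exon goes from 44.8% in line 66 to 29.2% in line 72 and the Rps12 584-base transcript from 50.3% to 38.8%.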

How the data were processed

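Stranded mRNA libraries were sequenced. The authors deposited tables of 121798 transcripts with an estimated count (often fractional, because ambiguous reads are split) and a TPM value each. The submitters' processing notes name bcl2fastq 2.20, fastp 0.20, kallisto 0.46.1 and build GRCm39. The tables hold no coordinates, and their identifiers were matched to GENCODE M21 (GRCm38), which left out 1112 transcripts (0.493 to 0.535% of counts). Estimated counts per library were between 66972426 and 73274315, and precision rests on 3 libraries. Values were summed per gene, and lines were compared on log2(TPM + 1) at a mean of at least 10 TPM. The tests were exact sign-flips over lines (smallest p 0.25) with Benjamini-Hochberg adjustment over the 7 pairs reported, and 1 further pair of the design is not reported here. The 95% intervals are exact Poisson intervals, and 0 counts allow up to 3. Members, pairs and gene lists were chosen with earlier results of these data known.

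Genes named by rule were the 5 highest, 5 lowest and 5 widest-ranging members, all pairs, the stalk proteins, Rpsa, members on chromosomes 6, 10 and 11, the ends of each list (the rule allowed 3 at each end, and fewer are named) and the extremes of unique sequence. Others (Rpl31, Rpl35a, Rps28, Rpl10a, Rpl14, genes named for transcript labels, and further list genes) were chosen with the values in view. Promoters came from RefSeq (GRCm38.p6). Alternatives were a pseudocount of 0.1, CPM, edgeR TMM and DESeq2 factors on rounded estimated counts, other filters, a fold of 1.5, pseudogenes added, another denominator and each line left out. Functions were tested on simulated data. Tools were Python 3.11.15, pandas 2.3.3, scipy 1.17.1, Biopython 1.88, R 4.3.3, edgeR 4.0.16 and DESeq2 1.42.0.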

Additional observations from a re-analysis of the deposited data

How the results depend on the processing

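Of 125 alternative values for 18 results, 98 stayed within the spread of the lines or on the same side, 26 moved and 1 reversed; the cause was not tested except where the unit itself changed. Pair ratios and the subunit difference were judged by sign alone, so a change in their size is not among those that moved. No paired analysis was possible because every library belongs to the same condition. Without division by length (CPM) the share became 4.91%, the median level 9.05, and the large-minus-small difference reversed to 0.034. The line ratio of line 72 became -0.062 with CPM, and the chromosome ratios 0.060 (chromosome 6) and 0.44 (chromosome 11). With TMM the median level was 9.06, the median range 0.147, the line ratios 0.11, -0.010 and -0.10, and the chromosome ratios 0.021, 0.41 and 0.47 for chromosomes 6, 10 and 11. With DESeq2 size factors they were 9.05, 0.144, 0.11, -0.0077, -0.10, 0.022 (chromosome 6) and 0.47 (chromosome 11). Over protein-coding nuclear genes alone the share was 16.7% and the median level 10.93. Leaving out the members on chromosomes 10 and 11, an alternative chosen after seeing the data, gave a share of 12.2% and a median level of 10.74. Leaving out 1 line at a time gave median ranges from 0.0539 (without line 66) to 0.0822. The count over 2-fold stayed 0 in every alternative run.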
